A study of Drosophila melanogaster with 6 samples.

Results

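UDP-glycosyltransferases move a sugar from a UDP-sugar, in insects mostly UDP-glucose, onto small lipophilic molecules. The added sugar makes the molecule more soluble in water, so that it can be stored or excreted, and the enzymes are anchored in the membrane of the endoplasmic reticulum with the active site facing its lumen. In flies they are known for work on plant toxins, insecticides, odorants and pigments, mostly in gut, fat body, Malpighian tubules and antennae. In their names the number stands for a family and the letter for a subfamily of similar proteins.

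Members were all probe sets that the platform annotation assigned to exactly 1 gene symbol starting with Ugt and a number. This gave 35 probe sets for 35 genes, of 11982 genes that had a probe set of 1 symbol. The 35 genes were also all Ugt genes of the RefSeq gene table of genome Release 6, and 0 probe sets named a Ugt gene beside another gene. The genes were chosen by name and not by value, but the fall of Ugt37D1 after Iswi dsRNA was known when the family was proposed. The values of Ugt37D1 are therefore given as a description with no p of its own, and its call, though included in the totals below, supports nothing.

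The cells were SL2, an established Drosophila line from late embryos that resembles haemocytes, the blood cells of insects. The ISWI group was treated for RNA interference with 10 µg of double-stranded RNA (dsRNA) against Iswi, which encodes the ATPase of several nucleosome remodelling complexes, and the GST group with 10 µg against GST, the control target. Both groups were kept with the dsRNA for 1 hour in serum-free medium and harvested on day 7, with 3 biological replicates each and 1 array of total RNA per replicate. No untreated cells were measured, and the line is a single cultured cell type.

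The Iswi probe set read 7.66, 7.74 and 7.16 on the ISWI arrays, against 10.53, 10.54 and 10.47 on the GST arrays (deposited log2 values). The ISWI level was 12.6% of the GST level, and the groups lay far apart. Limma gave adjusted p = 7.61e-06, and p was 0.1 in a two-sided exact permutation test, which cannot go lower with 3 arrays a group. On each array 7331 to 7416 probe sets exceeded a value of 4. For the eIF-4a controls, the 3' probe set exceeded the 5' one by 1.91, 2.26 and 1.86 on the ISWI arrays. On the GST arrays the excess was 1.85, 1.75 and 1.69, so every ISWI array lay above every GST array. For the actin controls it was 1.06 on ISWI replicate 2, against 0.40 to 0.55 on the other arrays. The part of this measure in the differences between the groups was not tested. GST replicate 1 had the highest 18S rRNA value, at 12.99 against 8.31 to 9.30 on the other arrays. Without ISWI replicate 2 the number of Ugt genes that passed was 6, and without GST replicate 1 it was 5, against 6 with all arrays. All 10 haemocyte markers were above 4, and 0 of 5 gut markers, 0 of 3 Malpighian tubule markers and 0 of 3 olfactory genes (Obp56d, lush and Orco) were. Of 6 fat body markers the lipoprotein gene apolpp and the lipase gene bmm were above 4, while the probe sets of Lsp2, Fbp1, Fbp2 and Yp1 read 2.60 at most. Of the neuronal genes, elav and 1 of the 4 probe sets of brp were above 4, while the other 3 probe sets of brp and the probe set of nSyb were not.

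Few of the 35 genes were expressed in SL2 cells. A gene was called expressed, and was tested, if 3 or more of the 6 arrays had its probe set above 4. By this level 7 genes (20%) were expressed and 28 were not. The expressed genes were Ugt302C1, Ugt35A1, Ugt35C1, Ugt36A1, Ugt317A1, Ugt316A1 and Ugt37D1, each above 4 on all 6 arrays. None of the 35 was expressed by means of 1 group alone. The lowest value just inside the level was 5.78 for Ugt35C1, on a GST array, and the highest just outside it was 3.85 for Ugt302K1, on an ISWI array. The level of 4 was chosen, not measured, and the values of different probe sets are not set against each other, since probe sets differ in how strongly they bind. Each Ugt gene had 1 probe set, so each call of not expressed rests on that probe set alone. A gene can read near the floor on 1 probe set and far above 4 on another. Gnpnat, named below, had ISWI and GST means of 2.52 and 2.52 on 1 probe set and 9.82 and 8.59 on another.

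**Figure D1:**
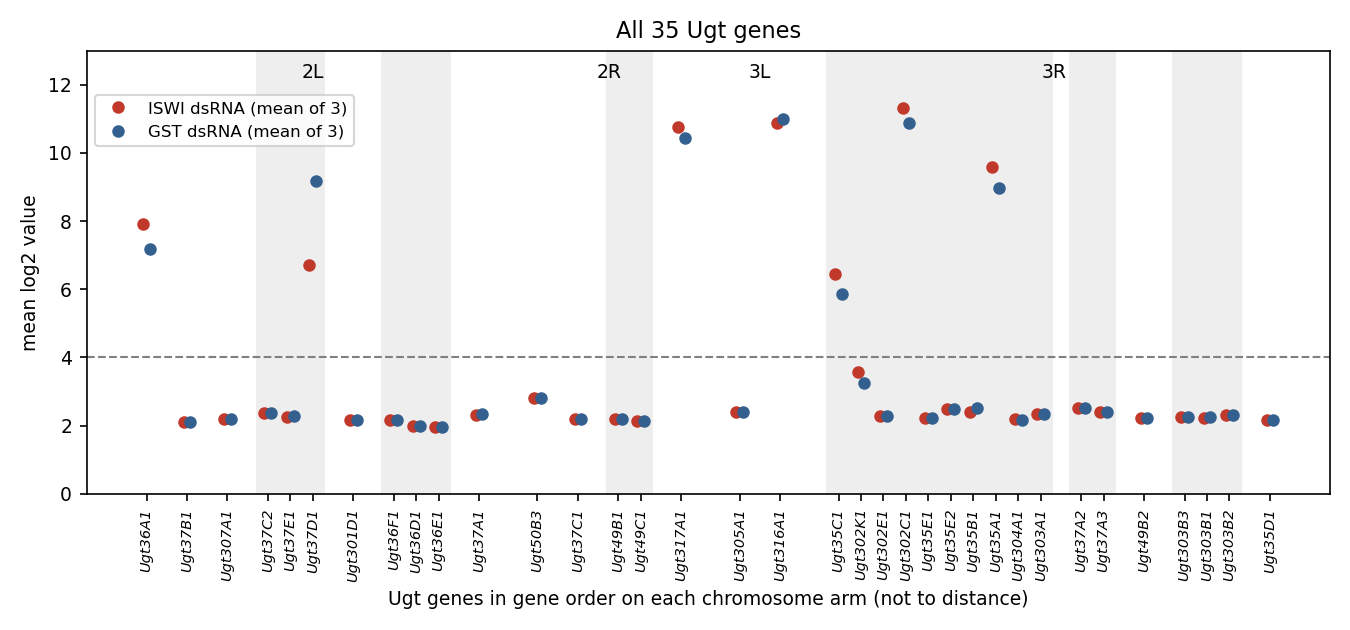
Mean log2 value of the probe set of each of the 35 Ugt genes in the ISWI group (red, left) and the GST group (blue, right), 3 arrays each, in gene order on each chromosome arm. Grey bands mark runs of neighbouring Ugt genes and the dashed line marks the level of 4, above which 7 genes lie in both groups.

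Expressed genes were spread over the families. Of the 8 Ugt37 genes 1 was expressed, of the 6 Ugt35 genes 2, of the 4 Ugt36 genes 1 and of the 3 Ugt302 genes 1. Ugt316A1 and Ugt317A1, each the only gene of its family, were both expressed. None of the 4 Ugt303 genes or the 3 Ugt49 genes was expressed, and neither were Ugt50B3, Ugt301D1, Ugt304A1, Ugt305A1 and Ugt307A1, which also stand alone in their families. Ugt35B1, a gene known for its expression in antennae, was among those not expressed.

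The 28 genes that were not expressed lay near the floor of the arrays. Apart from Ugt302K1, the other 27 read between 1.96 and 2.85 on every array. The ISWI and GST means differed by less than 0.05 for 26 of the 28, by 0.03 at most. The exceptions were Ugt302K1 and Ugt35B1. Ugt302K1 read 3.25, 3.60 and 3.85 on the ISWI arrays, against 3.24, 3.25 and 3.27 on the GST arrays. ISWI replicate 1 lay within the GST values, and the other ISWI arrays lay above them but still under 4. Ugt35B1 read 2.39, 2.40 and 2.39 on the ISWI arrays, against 2.41, 2.42 and 2.71 on the GST arrays, so that GST replicate 3 alone set the difference. Below 4 a value is only a bound, and these genes were left out of the main test.

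After Iswi dsRNA 5 of the 7 expressed genes were higher at a limma adjusted p under 0.05, 1 did not pass, and 1 was lower, which is Ugt37D1. Over all 6011 expressed genes of 1 symbol, 41.1% passed (23.4% higher and 17.6% lower). Over all tested probe sets 40.2% passed, so a call by itself was common in these data. The split of these probe sets was 1634 higher and 1340 lower, but 1476 and 1510 once the arrays were centred on a common median. The median log2 difference of the 7 was 0.43, against 0.03 over all expressed genes, and the median size of the difference was 0.60, against 0.20. The 7 genes had groups that did not overlap, 5 with ISWI higher and 2 with ISWI lower, as did 54.9% of all expressed genes (31.2% higher and 23.7% lower). These counts describe 7 genes of a family proposed with results known. In cultures a change in RNA per cell and a change in the share of cells that make it cannot be told apart.

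**Figure D2:**
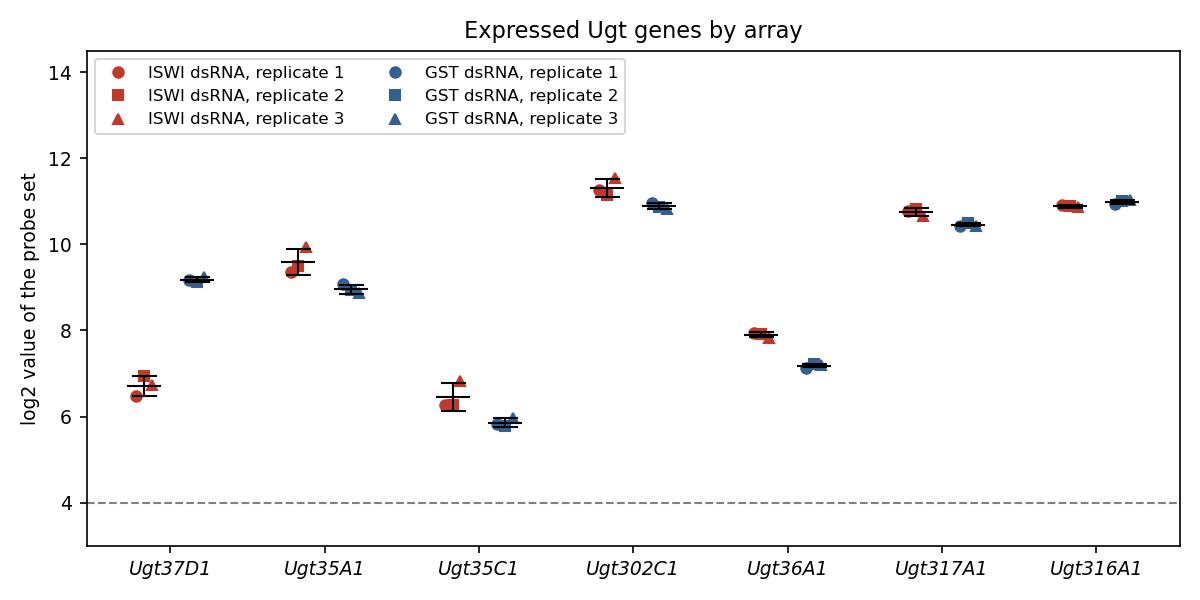
Log2 value of the 7 expressed Ugt genes on each array, ISWI (red, left) and GST (blue, right), with marker shapes for replicates and black bars for the mean and SD of 3 arrays. The ISWI arrays of Ugt37D1 sit between 6.48 and 6.94, below its GST arrays at 9.12 to 9.25, while the ISWI arrays of 5 genes sit above their GST arrays; heights are not comparable between genes.

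Ugt37D1, named Ugt36Bc in older annotations, had the only large change of the family. It read 6.48, 6.94 and 6.72 on the ISWI arrays, against 9.17, 9.12 and 9.25 on the GST arrays. Every ISWI array was at least 2.18 below every GST array, and all stayed well above 4. The ISWI arrays averaged 6.72 ± 0.23 and the GST arrays 9.18 ± 0.06 (SD, n = 3 each), a log2 difference of -2.46 with a standard error of 0.12. On a linear scale the ISWI mean was 18.1% of the GST mean. It was the only expressed Ugt gene that changed at least 2-fold. Its probe set has an ID ending in _s_at, which in this naming scheme marks probes that can match several transcripts, and so do those of Ugt36E1 and Ugt50B3. The annotation gave Ugt37D1 as the only gene.

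In the gene table Ugt37D1 is the last of 3 adjacent genes on chromosome arm 2L, after Ugt37C2 and Ugt37E1. Neither of these was expressed. Ugt37E1 read 2.25, 2.26 and 2.25 on the ISWI arrays, against 2.26, 2.32 and 2.26 on the GST arrays, and the gene on the other side, CG13280, was also below 4 on all arrays. The fall was thus seen at 1 expressed gene with unexpressed neighbours on both sides.

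The largest group of Ugt genes is a run of 10 on arm 3R, with at most 2 other coding genes between neighbours, known earlier as the Ugt86D cluster. It held 3 expressed genes, Ugt35C1, Ugt302C1 and Ugt35A1, and all 3 were higher in the ISWI group. They are not next to each other. From the first gene of the run, the order is Ugt35C1, Ugt302K1, Ugt302E1, Ugt302C1, Ugt35E1, Ugt35E2, Ugt35B1, Ugt35A1, Ugt304A1 and Ugt303A1, and the expressed genes are separated by genes below 4.

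Ugt35A1 (older name Ugt86Df) read 9.35, 9.50 and 9.94 on the ISWI arrays, against 9.07, 8.93 and 8.87 on the GST arrays. All ISWI arrays lay above all GST arrays, with ISWI replicate 3 the highest. The log2 difference was 0.64 (standard error 0.14, limma adjusted p = 0.00967), or 1.56-fold.

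Ugt35C1 (older name Ugt86Dd), a gene in which natural variation affects resistance of flies to nicotine, read 6.26, 6.27 and 6.83 on the ISWI arrays, against 5.82, 5.78 and 5.98 on the GST arrays. The groups did not overlap, and ISWI replicate 3 stood above the other arrays. The log2 difference was 0.60 (standard error 0.17, limma adjusted p = 0.023). This call was the least firm of the family: the adjusted p was 0.0728 without GST replicate 1, 0.0816 without GST replicate 2 and 0.0722 with no filter on low values.

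Ugt302C1 (older name Ugt86Da) read 11.26, 11.15 and 11.55 on the ISWI arrays, against 10.97, 10.87 and 10.83 on the GST arrays. The nearest arrays of the groups were 0.18 apart, and ISWI replicate 3 was again the highest. The log2 difference was 0.43 (standard error 0.10, limma adjusted p = 0.0116), or 1.35-fold.

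The 3 expressed genes of the run thus had their highest value on ISWI replicate 3, which also had the lowest Iswi value (7.16). Relative to its GST mean, Ugt35A1 was higher by 0.40, 0.54 and 0.98 on ISWI replicates 1, 2 and 3, Ugt35C1 by 0.41, 0.41 and 0.97, and Ugt302C1 by 0.37, 0.26 and 0.67. Of all 6011 expressed genes, 37.55% had their highest ISWI value on this array and 40.51% on ISWI replicate 2. Ugt302K1, of the same run and below 4 throughout, was also highest there. Without ISWI replicate 3 the log2 differences were 0.47 for Ugt35A1, 0.41 for Ugt35C1 and 0.31 for Ugt302C1, with limma adjusted p = 0.00604, 0.0269 and 0.00883. The part of the Iswi level in this order was not tested.

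The other 3 expressed genes stand alone in the genome, with no other Ugt gene nearby. Ugt36A1, also called Dot (Dorothy), whose enhancer is known to mark blood-forming and nephrocyte cells of the fly, read 7.94, 7.92 and 7.83 on the ISWI arrays, against 7.14, 7.21 and 7.19 on the GST arrays. The values within each group were close together, and the groups were 0.62 apart at their nearest arrays. The log2 difference of 0.72 (standard error 0.08, limma adjusted p = 0.000275), or 1.65-fold, was the largest rise of the family with all arrays. Without ISWI replicate 1 it was 0.70, against 0.76 for Ugt35A1. Among the ISWI arrays it was lowest on replicate 3, as were Ugt317A1 and Ugt316A1, while the genes on 3R were highest there. Its coding neighbours odd and CG15418 were below 4 on all arrays.

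Ugt317A1 (older name Ugt58Fa) read 10.78, 10.83 and 10.66 on the ISWI arrays, against 10.43, 10.50 and 10.44 on the GST arrays. The ISWI arrays were all higher, by at least 0.16. The log2 difference was 0.30 (standard error 0.06, limma adjusted p = 0.00558), or 1.23-fold. Both of its nearest coding genes with a probe set were expressed and higher by a like amount. CG3732 read 9.89, 9.94 and 10.01 on the ISWI arrays, against 9.62, 9.63 and 9.70 on the GST arrays, a log2 difference of 0.29 (limma adjusted p = 0.00611). CG2852 had a log2 difference of 0.28 (limma adjusted p = 0.0124), and its adjusted p was 0.0504 without GST replicate 1. A link between the 3 was not tested.

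Ugt316A1 was the expressed gene that did not pass. It read 10.92, 10.89 and 10.86 on the ISWI arrays, against 10.93, 11.00 and 11.02 on the GST arrays. The ISWI arrays were all lower, but the nearest arrays of the groups differed by only 0.01. The log2 difference was -0.10, with a 95% interval of -0.21 to 0.02 and limma adjusted p = 0.162. The interval includes 0 and also a small fall. The neighbouring gene Sfxn2, encoding a sideroflexin, was also expressed and had a difference of -0.04 (limma adjusted p = 0.722), and Acp76A was below 4.

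**Figure D3:**
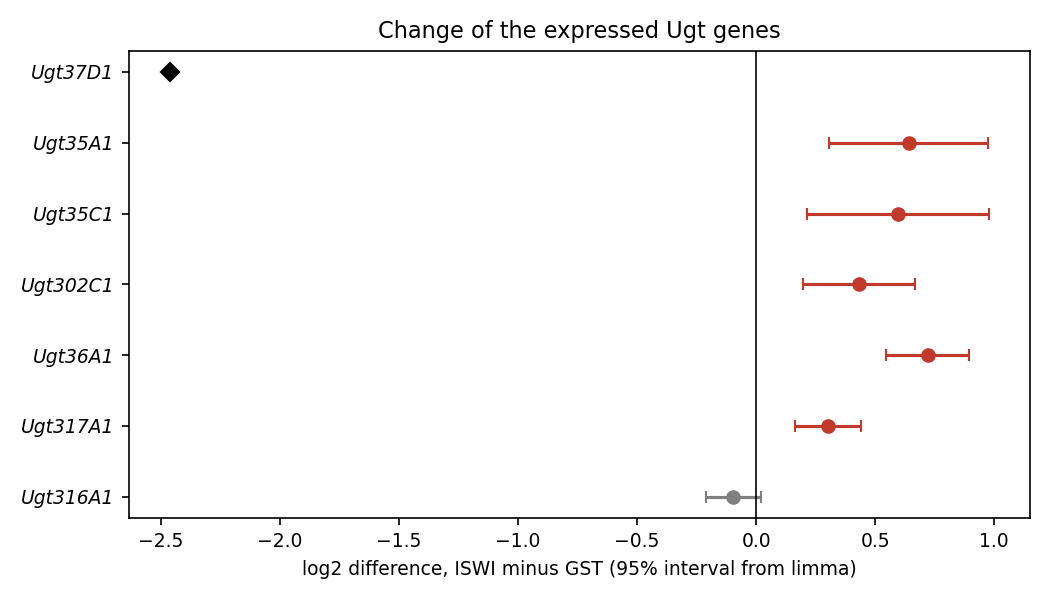
Log2 difference (ISWI minus GST) of the 7 expressed Ugt genes with the 95% interval from limma, red where the adjusted p is under 0.05 and grey where it is not, and Ugt37D1 as a black diamond with no interval or test. Ugt37D1 lies at -2.46, 5 genes lie between 0.30 and 0.72, and the interval of Ugt316A1 includes 0.

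Taking the 14 nearest neighbours of the 7 expressed genes, 3 were expressed, and of these 2 were higher, 0 were lower and 1 did not pass. Over all expressed genes 41.1% passed (23.4% of all expressed genes as higher and 17.6% as lower). For Ugt302C1, Ugt35A1, Ugt35C1, Ugt36A1 and Ugt37D1 the neighbours on both sides were below 4.

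Genes that make or carry the UDP-sugars changed in both directions. Of 21 listed genes 18 had a probe set of 1 symbol and 14 were expressed. Of these 5 were higher and 3 lower (57.1% called, median log2 difference 0.04), against 41.1% called over all expressed genes. Gnpnat, an acetyltransferase on the way to UDP-N-acetylglucosamine, read 9.76, 9.71 and 9.99 on the ISWI arrays, against 8.49, 8.62 and 8.66 on the GST arrays. It rose by 1.23 on the log2 scale (standard error 0.09, limma adjusted p = 5.52e-05). Galt, the uridylyltransferase of galactose use, rose by 1.00, Uxs, which makes UDP-xylose from UDP-glucuronic acid, by 0.73, and the Golgi sugar transporter gene senju by 0.62, with limma adjusted p of 0.000725, 0.000376 and 0.000289.

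The fifth gene to rise was Galk (galactokinase) at 0.33. The 3 that fell were sgl at -0.33, Efr at -0.38 and meigo at -0.34. These 4 are named because the counts are small, after their values were seen. The gene sgl encodes UDP-glucose dehydrogenase, which turns UDP-glucose into UDP-glucuronic acid, and read 12.49, 12.43 and 12.39 on the ISWI arrays, against 12.77, 12.82 and 12.71 on the GST arrays. Efr and meigo encode nucleotide sugar transporters of the endoplasmic reticulum and Golgi. The only probe set of UGP, the enzyme that makes UDP-glucose itself, read 3.36, 3.39 and 3.80 on the ISWI arrays, against 3.38, 3.36 and 3.37 on the GST arrays. It was below 4 throughout and was not tested. It was also chosen after its values were seen.

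Other transferases, outside the Ugt family, were nearly all expressed. Of 16 listed genes 15 had a probe set and all 15 were expressed. Of these 5 were higher and 2 lower (46.7% called, median log2 difference 0.06), near the 41.1% called over all expressed genes. The glucuronyltransferase gene GlcAT-S had the largest change, with 7.28, 7.50 and 7.96 on the ISWI arrays, against 5.90, 5.99 and 5.81 on the GST arrays. Its log2 difference was 1.68 (standard error 0.17, limma adjusted p = 0.000234), or 3.20-fold. The genes shams and rumi, whose enzymes add xylose and glucose to Notch, rose by 0.91 and 0.60 (limma adjusted p = 0.000291 and 0.000405), and botv, of heparan sulfate synthesis, by 0.30 (limma adjusted p = 0.00781). The fifth to rise was wol at 0.20. The 2 that fell were ttv at -0.21 and egh at -0.28, which are named for the small count after their values were seen; egh was listed here although its enzyme adds mannose. Neither wol, ttv nor egh passed without GST replicate 1 or without GST replicate 2, which left 4 higher and 0 lower.

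Of 21 listed regulators, efflux transporters and sulfotransferases of detoxification, all had a probe set and 12 were expressed. Of these 4 were higher and 1 lower (41.7% called, median log2 difference 0.19). The share called was that of all expressed genes (41.1%). Mdr49, an efflux pump of the P-glycoprotein type, read 5.57, 5.54 and 6.30 on the ISWI arrays, against 3.51, 3.38 and 3.26 on the GST arrays. It lay above 4 on the ISWI arrays only, and was at least 3.49-fold higher there, with the GST group taken at the level of 4. It was tested only because of its ISWI values, so it had to differ, and its call, though in the count, is no support. MRP, another efflux pump gene, rose by 0.29 (limma adjusted p = 0.00383). The gene gce, of a juvenile hormone receptor, fell by 0.98 and tgo, a partner of several transcription factors of the same class, rose by 0.26, with limma adjusted p of 0.0203 and 0.0433. The fourth to rise, betaGlu, for a glucuronidase that removes glucuronic acid, had a log2 difference of 0.24 (limma adjusted p = 0.0433) and was named after its value was seen.

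The xenobiotic receptor gene Hr96 had 8.97, 9.30 and 9.21 on the ISWI arrays, against 8.97, 8.97 and 8.84 on the GST arrays, and did not pass (limma adjusted p = 0.0852). The stress regulators cnc and Keap1 had log2 differences of 0.18 and 0.19 and did not pass either (limma adjusted p = 0.104 and 0.151). Mdr50, Mdr65, Mrp4 and the sulfotransferase genes St1, St2, St3 and St4 were below 4 on all arrays. Of the regulators and transporters, MRP was the only one beside Mdr49 to pass without GST replicate 2 or without GST replicate 3. With Mdr49 counted, 3 genes passed without ISWI replicate 2 or without GST replicate 1.

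**Figure D4:**
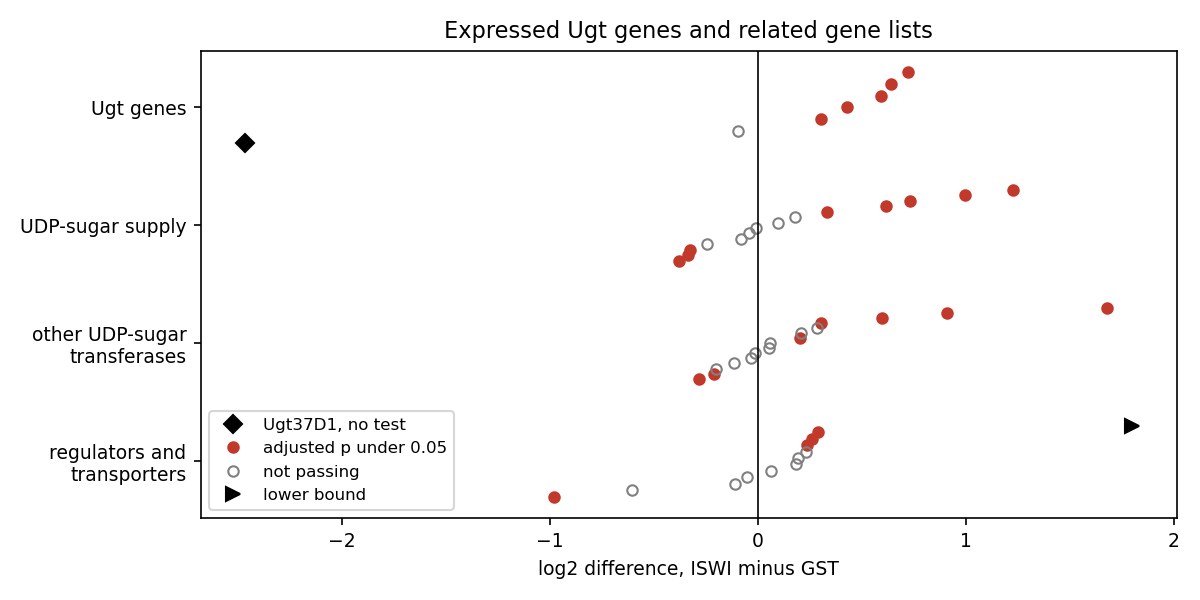
Log2 difference (ISWI minus GST) of each expressed Ugt gene and of the expressed genes of 3 related lists, filled where the limma adjusted p is under 0.05 and open where it is not, with Ugt37D1 as a black diamond with no test. Ugt37D1 at -2.46 is the lowest point, Gnpnat at 1.23 and GlcAT-S at 1.68 are the highest of their lists, and Mdr49 is an arrowhead at its lower bound of 3.49-fold.

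Set beside the other enzyme families of detoxification, 20% of the Ugt genes were expressed, against 70.6% of 34 glutathione S-transferase genes, 34.9% of 83 cytochrome P450 genes and 50.2% of all genes. Of the expressed genes 6 of 7 Ugt, 15 of 24 glutathione S-transferase and 21 of 29 cytochrome P450 genes passed, against 2468 of 6011 over all genes. Higher and lower numbered 5 and 1 in the Ugt genes, 8 and 7 in the glutathione S-transferase genes 15 and 6 in the cytochrome P450 genes and 1408 and 1060 over all genes. At least 2-fold changes were found in 1 Ugt, 3 glutathione S-transferase and 12 cytochrome P450 genes, and in 311 of all 6011 expressed genes. All 7 expressed Ugt genes lay above 4 on every array. The other counts can include genes above 4 in 1 group only, as Mdr49 was, whose fold rests on values below 4. The families were not tested against each other. Each Ugt gene had 1 probe set, whereas all 11982 genes had 13646, and a gene with several can more easily count as expressed. The control dsRNA was directed against GST, and whether it touched the fly's own glutathione S-transferase genes was not tested.

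Markers of cell types also changed in part. The 10 haemocyte markers summed to 108486 to 117789 on the ISWI arrays and 113630 to 118174 on the GST arrays (linear scale). Of the 10, eater and crq were higher and NimC1, srp and Pxn lower, so 50% passed, against 41.1% of all expressed genes. A second probe set of Pxn did not pass, with a log2 difference of -0.21 (limma adjusted p = 0.411). The groups overlapped on both probe sets of Pxn. The log2 differences of eater and NimC1 were 0.75 and -0.86. Such a sum follows its highest probe sets, such as vkg with ISWI and GST means of 14.81 and 14.89. It hardly shows NimC1, with means of 10.34 and 11.20. The 6 fat body markers summed to 1244 to 1506 on the ISWI arrays and 1288 to 1373 on the GST arrays, and 0 of the 2 expressed passed. Their sum is mostly bmm, with ISWI and GST means of 10.24 and 10.22, against 6.91 and 6.78 for apolpp. The 3 neuronal markers summed to 174 to 209 on the ISWI arrays and 216 to 270 on the GST arrays, and brp fell by 0.29 (limma adjusted p = 0.0454). Their part in the Ugt values was not tested.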

How the data were processed

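Sample titles gave the treatment, and with it the group. The deposited log2 values per probe set were used as they stand. GCRMA is named in the submitters' processing notes; its version and other steps are not given in the sources used here. GCRMA in general removes background, equalises quantiles over arrays and combines probes into probe sets. It holds undetected transcripts at a low, nearly constant level and removes any shift of total RNA.

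Of 18952 probe sets, 183 controls were left out. The platform annotation gave 1 symbol for 13646, several for 402 and none for 4721, and 13543 of the first matched RefSeq's table (Release 6), which gave gene names and order. The 7390 probe sets above 4 on at least 3 arrays were fitted in R 4.3.3 by limma 3.58.1, whose moderated two-sided test allowed for a trend with intensity. Benjamini-Hochberg adjustment ran over all of these probe sets, with a threshold of 0.05. Over probe sets 40.2% passed. The probe set with the highest mean stood for its gene. Ugt genes in 1 run had at most 3 other coding genes between them. Named were Iswi, every expressed Ugt gene, its neighbours and up to 4 passing genes per list by smallest adjusted p. Members and lists were chosen with earlier results of these data known.

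Alternatives were other filters, normalizations, variance moderation, array weights, a replicate block, a threshold of 0.01 and leaving out each array. The fit was tested on simulated data, in 10 simulations with 200 changed probe sets. It recovered 67.2% of log2 changes of 0.5, 91.6% of changes of 1 and 98.8% of changes of 2. Of its calls, 5.7% fell on unchanged probe sets. The 200 are far fewer than the 2974 called in the data, so these shares need not hold there. With arrays, their number limits the precision. The replicates were called biological in the series design.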

Additional observations from a re-analysis of the deposited data

How the results depend on the processing

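The count of 6 called Ugt genes (5 higher, 1 lower) was found with the replicate block, with each other normalization, moderation and weighting, and with other filters, except that it was 5 (4 higher, 1 lower) with no filter. It was 4 (3 higher, 1 lower) at a threshold of 0.01, and 5 to 6 when each array was left out. Of the 7 expressed genes, 6 stayed on their side of the threshold in 16 of 16 settings, the exception being Ugt35C1 in 3 settings, and 0 changed sign. The number of expressed genes was 8 with a level of 3 and 7 with a level of 5 or on all 6 arrays. Over all probe sets 2974 were called, 2236 with no filter, 2808 with the replicate block and 2100 to 3023 without single arrays. The excess of higher over lower calls (1634 and 1340) was absent with arrays centred (1476 and 1510). It was also absent with quantile normalization applied again (1513 and 1522).

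The 5 called regulators and transporters became 2 with no filter, 3 with a level of 3, and 2 to 7 without single arrays, and the 7 called other transferases became 4 to 7. Of 23 other named genes 7 lost their call in some setting, and Sfxn2, which never passed, had a difference of 0.0295 without ISWI replicate 1 and of -0.0742 without ISWI replicate 3. The cause was not tested.

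Deviations from the group mean had r = -0.18, 0.12 and 0.06 between same-numbered arrays over tested probe sets. Between arrays of different number r was -0.24 to 0.14. With 3 arrays a group these values cannot show whether the replicates were paired, and the main fit treated them as unpaired. Genes below 4 have no measured change, and 3 arrays a group limit what can be called.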
